A study of Mus musculus with 9 samples.

Results

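The Cd34 Scin neurons are 113 barcodes of a mouse trigeminal ganglion Dropseq table, the smaller subtype of the low-threshold C-fibre neurons in it. They were selected on measured values. A barcode had to have 500 to 7500 genes with a UMI (a unique transcript, counted once however often it was amplified). It had to show at least 3 of the neuronal genes Tubb3, Scn9a, Snap25, Nefl, Nefm and Uchl1, no Epcam, at most 1 UMI of Mrgprd, at least 1 of Piezo2, and at least 3 of the 8 low-threshold genes Gm7271, Cd34, Scin, Fam19a4, Cdh9, Adamts9, Igfbp2 and P2ry1. Of the 432 barcodes that met these conditions, the 113 showed more genes of a first list (Scin, Ceacam10, Cd34, Fbp2 and Iqsec2) than of a second (Ttc29, Fam19a4, Cdh9, Adamts9 and Igfbp2). They were 26.2% (22.1 to 30.6) of those 432 low-threshold neurons, 2.93% (2.42 to 3.51) of the 3855 barcodes with the neuronal genes, and part of 6997 barcodes in all.

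The ganglia came from wild-type mice of the FVB/N strain, labelled as 3 to 6 weeks old (the study's methods give a narrower range for these runs), and were dissociated into single cells for 9 Dropseq runs. The preparation was depleted of non-neuronal cells on a density gradient and with an antibody kit, and no treatment or genotype was compared. A barcode does not name its run, so all cells were 1 pooled sample. No test between groups of cells was therefore possible, and runs and animals cannot be told apart. Values are UMIs of a gene per 1000000 UMIs, both summed over a group of barcodes (CPM), with exact Poisson 95% intervals, or shares of barcodes with at least 1 UMI with exact Clopper-Pearson 95% intervals. Both cover counting error only.

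The 113 members held 1134298 UMIs, with a median of 6390 per barcode (1019 to 46246) and 3007 genes. Other groups are set beside them. The Fam19a4 Cdh9 neurons are the 220 low-threshold barcodes with more genes of the second list (median 5264.5 UMIs), the tied neurons are the 99 with as many of each (5381 UMIs), and the other neurons are 3161 neuronal barcodes with at most 1 low-threshold gene (2633 UMIs). Because a deeper barcode shows more genes, some shares are also given as calculated for every barcode thinned to 1000 UMIs. Free RNA gives UMIs in cells that do not express a gene, so shares in 228 barcodes with fewer than 3 of the neuronal genes and at least 5 of 10 glial markers (glia-like, median 1632 UMIs) and in 1058 such barcodes with at least 10% haemoglobin UMIs (erythrocyte-like, median 1274.5 UMIs) are given beside some results.

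Low-threshold C-fibres are unmyelinated sensory axons that answer gentle, slow touch of hairy skin, and they are known for the pleasant or affective side of touch. Their cell bodies are small and poor in neurofilament, and they use the stretch-gated channel Piezo2 for transduction and glutamate for transmission. In the dorsal root ganglion, such cells (C-LTMRs) are recognised by tyrosine hydroxylase (Th), the vesicular glutamate transporter Slc17a8 and the secreted protein Fam19a4, and the transcription factor Runx1 takes part in their development.

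The names of the subtype rest on a cell surface sialomucin and an actin-severing protein. Cd34 is the sialomucin best known from blood progenitors and vessels, and Scin (scinderin) is a calcium-dependent member of the gelsolin family. Ceacam10 is a secreted member of the carcinoembryonic antigen family, Fbp2 the muscle isoform of the gluconeogenic enzyme fructose-1,6-bisphosphatase, and Iqsec2 an exchange factor for ARF GTPases at synapses. In the GRCm38 assembly, Scin lies on chr12:40059769-40134228 (minus strand), Ceacam10 on chr7:24777206-24784657 (plus), Cd34 on chr1:194938819-194961279 (plus), Fbp2 on chr13:62836877-62858422 (minus) and Iqsec2 on chrX:152144268-152225236 (plus), and all are protein coding. The windows around the RefSeq start sites of the 4 genes of the list that were seen in the fewest other neurons (0.253% of them for Scin, 0.190% for Ceacam10, 0.823% for Cd34 and 1.83% for Fbp2) are shown here, from RefSeq and in GRCm38.p6, from 250 bases before to 50 bases after the start, read on the gene's strand, with CAGCTG (an E-box) in capitals. They cover chr12:40134179-40134478, chr7:24776917-24777216, chr1:194938571-194938870 and chr13:62858351-62858650.
Scin: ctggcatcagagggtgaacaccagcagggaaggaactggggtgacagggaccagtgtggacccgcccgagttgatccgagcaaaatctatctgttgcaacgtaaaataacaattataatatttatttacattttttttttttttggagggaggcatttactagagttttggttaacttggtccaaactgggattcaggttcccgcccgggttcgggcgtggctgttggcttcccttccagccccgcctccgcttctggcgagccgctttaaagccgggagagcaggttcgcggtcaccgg
Ceacam10: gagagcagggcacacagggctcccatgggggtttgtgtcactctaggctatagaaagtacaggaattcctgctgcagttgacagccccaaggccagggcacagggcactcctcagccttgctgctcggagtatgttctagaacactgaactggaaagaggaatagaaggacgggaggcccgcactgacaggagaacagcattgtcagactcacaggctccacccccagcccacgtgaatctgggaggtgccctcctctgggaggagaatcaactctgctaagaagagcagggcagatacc
Cd34: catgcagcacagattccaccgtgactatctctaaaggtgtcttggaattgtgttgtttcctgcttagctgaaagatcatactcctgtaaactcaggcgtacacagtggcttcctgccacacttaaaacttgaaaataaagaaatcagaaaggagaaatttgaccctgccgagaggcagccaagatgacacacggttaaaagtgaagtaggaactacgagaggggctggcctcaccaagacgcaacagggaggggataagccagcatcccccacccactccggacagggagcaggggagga
Fbp2: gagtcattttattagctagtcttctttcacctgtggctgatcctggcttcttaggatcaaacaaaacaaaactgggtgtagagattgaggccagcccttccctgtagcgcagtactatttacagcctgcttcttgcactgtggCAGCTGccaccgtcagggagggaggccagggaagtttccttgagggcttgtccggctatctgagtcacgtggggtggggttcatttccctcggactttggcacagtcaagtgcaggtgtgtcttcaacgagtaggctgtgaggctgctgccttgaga
The searched motifs were TGTGGT (a core of RUNX sites), CAGCTG and ATAATTAAT (a POU4F-type site), each on both strands, and none of them holds another. TGTGGT was found in none of the 5 list genes and in 16.9% of 27025 promoter windows of the same length. CAGCTG was found in Fbp2 and Iqsec2 and in 16.1% of all windows, and ATAATTAAT in none of the 5 and in 0.266% of all. A missing match says only that these letters are not in this window. The Scin window had 52.0% G or C and 16 CpG, the Ceacam10 window 56.7% and 4, the Cd34 window 50% and 7, and the Fbp2 window 52.7% and 6, beside medians of 52.7% and 7 over all windows.

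The genes of the rule are described first, since they chose the cells. Scin had at least 1 UMI in 64 members (56.6%), with a median of 1 and at most 10 UMIs in a member, and its level was 108 CPM (89.3 to 128). It was 61.6 CPM in the tied neurons, 21.7 in the Fam19a4 Cdh9 neurons and 0.639 (0.292 to 1.21) in other neurons, where 8 of 3161 barcodes had a UMI. Ceacam10 was seen in 50 members (44.2%), up to 14 UMIs each, at 141 CPM (120 to 165) against 31.0 in the Fam19a4 Cdh9 neurons and 0.568 in other neurons. Neither had a UMI in any glia-like barcode.

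Cd34 was seen in 98 members (86.7%) at 332 CPM (299.7 to 368), but also in 113 of the 220 Fam19a4 Cdh9 neurons (51.4%) at 156 CPM. In other neurons it was at 2.06 CPM. Fbp2 stood at 157 CPM in the members, 48.2 in the Fam19a4 Cdh9 neurons and 5.46 in other neurons. Iqsec2 stood at 284, 98.4 and 22.2 CPM and was seen in 8.42% of other neurons. By CPM both were about as high in the tied neurons, at 173 for Fbp2 and 277 for Iqsec2, but 1 tied barcode held 44 of the 177 Fbp2 UMIs. Fbp2 was seen in 38.4% of ties and 57.5% of members, and Iqsec2 in 69.7% and 80.5%.

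The second list was not silent in the members. Fam19a4, a secreted TAFA protein, was at 273 CPM in 74 members against 413 CPM in the Fam19a4 Cdh9 neurons, and the cadherin Cdh9 was at 123 against 178 CPM. The larger gaps were in Ttc29, a protein of ciliary assemblies (4.41 against 46.3 CPM, 5 members), in the insulin-like growth factor binding protein Igfbp2 (42.3 against 164 CPM) and in the matrix protease Adamts9 (37.9 against 120 CPM). Every member had Piezo2, at 1196 CPM against 1597 in the Fam19a4 Cdh9 neurons and 313 in other neurons. Across members Piezo2 ran from 2.172 to 48.2 UMIs per 10000, with a median of 12.1. The purinergic receptor P2ry1 was at 268 CPM and the predicted gene Gm7271 at 977 CPM, against 11.4 and 27.2 CPM in other neurons, which were themselves chosen for showing at most 1 of these genes.

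Of the members, 69 showed 1 gene more of the first list, 29 showed 2 more, 10 showed 3, 4 showed 4 and 1 showed 5. On the far side of the 99 ties, 87 neurons showed 1 gene fewer and 86 showed 2 fewer. Just inside the cut, at 1 gene more, Scin was at 86.4 CPM and Cd34 at 312, and just outside it, in the ties, they were at 61.6 and 279. Of the 5 genes of the first list, 6 members showed only 1, 23 showed 2, 35 showed 3, 34 showed 4 and 15 showed all 5. Of the members, 100 also had at least 1 gene of the second list, and 7 had 4 of its genes.

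**Figure D1:**
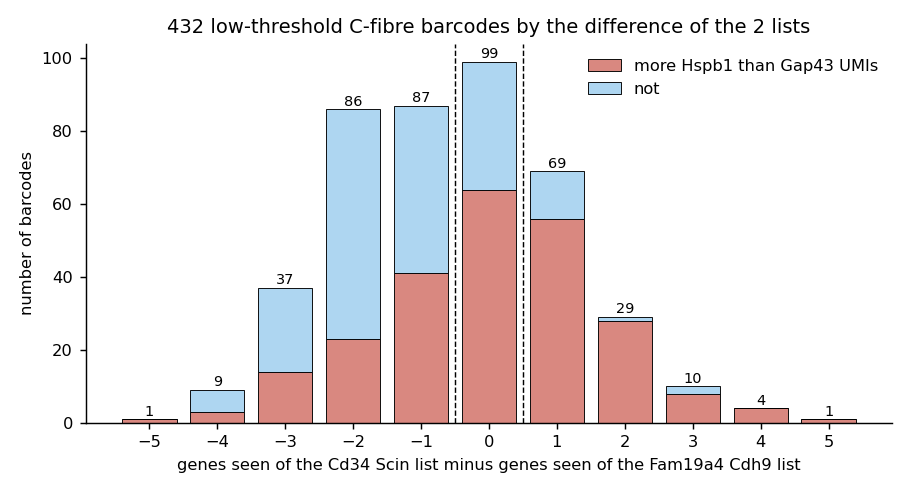
Number of low-threshold barcodes (vertical axis) by the genes seen of the Cd34 Scin list minus the genes seen of the Fam19a4 Cdh9 list (horizontal axis), with members to the right of the dashed lines, ties between them and Fam19a4 Cdh9 neurons to the left. The counts form 1 hump without a gap. The part with more Hspb1 than Gap43 UMIs was 26.7% to 47.1% in the bars from 4 genes fewer to 1 fewer, 64.6% in the ties and 80% to 100% in the bars of the members, and the 1 barcode at 5 genes fewer also had it.

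The label was then checked by leaving each gene out of the rule in turn and regrouping the cells by the other genes, so that the gene itself had no say. Scin was still higher in the regrouped Cd34 Scin neurons, at 76.8 CPM (56.8 to 101.5) in 78 barcodes against 41.2 CPM (33.7 to 49.9) in 251, a 1.88-fold difference. Cd34, left out of the list that carries its name, differed by only 1.18-fold, at 249.6 CPM (205 to 301) against 213 CPM (196 to 231). Ceacam10 differed by 1.23-fold, Fbp2 by 1.27-fold and Iqsec2 by 1.10-fold in the same direction, and the counting intervals of both groups overlapped for Cd34, Ceacam10, Fbp2 and Iqsec2. In the second list, Ttc29 was 2.35-fold and Igfbp2 2.31-fold higher in the regrouped Fam19a4 Cdh9 neurons, Adamts9 1.68-fold and Fam19a4 1.31-fold, and Cdh9 was at 164 CPM (146 to 184) against 165 (144.5 to 188). Of the first list, then, only Scin differed beyond counting error between groups drawn by the other genes. The name Cd34 Scin therefore stands here for the rule.

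Touch C-fibre genes of the dorsal root ganglion that the rule did not use were less than 2-fold apart between the subtypes, except Th. Of 10 such genes, 8 had enough UMIs to be compared with the Fam19a4 Cdh9 neurons (a mean of at least 50 CPM over both groups and a UMI in at least 20 barcodes), and 1 of them was at least 2-fold higher and none 2-fold lower. Over all genes compared these shares were 0.326% and 1.03%. The 8 genes had a median log2 difference of -0.09 (members over Fam19a4 Cdh9 neurons) beside 0.002 over all genes compared. Tyrosine hydroxylase, the enzyme that makes DOPA from tyrosine, was at 94.3 CPM (77.3 to 114) in the members, 115 in the ties, 25.6 (19.1 to 33.6) in the Fam19a4 Cdh9 neurons and 20.2 in other neurons. It was seen in 21 of 113 members (18.6%), 22 of 99 ties and 16 of 220 Fam19a4 Cdh9 neurons (7.27%), in none of the 228 glia-like barcodes and in 0.378% of the erythrocyte-like ones. Thinned to 1000 UMIs, 6.68% of members and 2.26% of Fam19a4 Cdh9 neurons would show it. The log2 difference was 1.87 (1.39 to 2.39). In the Fam19a4 Cdh9 neurons 1 barcode held 23 of the 52 Th UMIs, and without it their level was 14.6 CPM, while the members without their highest barcode were at 74.0 CPM. The ties were higher than the members, and along the difference of the lists Th was at 63.0 CPM with 1 gene more, 207 with 2, 67.7 with 3, 119 with 4 and 0 in the 1 barcode with 5, with no steady order. With Iqsec2 and Ttc29 left out of the lists the log2 difference was 0.66.

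Th was unevenly spread over the members. Most had none, 4 members with at least 5 UMIs each held 73 of the 107 Th UMIs, and the highest single barcode held 24. Members with and without Th were close in the list genes, at 98.5 and 110 CPM of Scin and 120 and 147 CPM of Ceacam10, and in Piezo2 (1190 and 1198 CPM). Of the other catecholamine genes, DOPA decarboxylase (Ddc) had 2 UMIs in 1 member and the vesicular monoamine transporter Slc18a2 had 2 UMIs, which is at the level of single counts. Slc17a8, the second classic marker, was seen in 9 members (8.82 CPM, 4.23 to 16.2) and in 11.8% of the Fam19a4 Cdh9 neurons (15.3 CPM), against 1.49 CPM in other neurons.

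The remaining C-LTMR genes were less than 2-fold apart between the subtypes. The neurturin receptor Gfra2 was at 192 CPM in the members and 151 in the Fam19a4 Cdh9 neurons, its signalling partner Ret at 248 and 277, and Runx1 at 154 and 157. The zinc finger factor Zfp521 was at 95.2 and 108 CPM, the POU factor Pou4f2 at 125 and 139, the A-type potassium channel Kcnd3 at 148 and 188, and the T-type calcium channel Cacna1h at 55.5 and 49.7. Against other neurons 5 of the 7 that could be compared (Th, Gfra2, Zfp521, Kcnd3 and Pou4f2) were at least 2-fold higher, where 4.27% of all genes were, while Ret (269.5 CPM) and Runx1 (133 CPM) were less than 2-fold apart. Summed, the 10 genes were at 1135 CPM (1073 to 1198) in the members and 535 in other neurons. They were at 1200 CPM (1151 to 1251) in 285 Mrgprd neurons (neuronal barcodes with at least 2 UMIs of Mrgprd). The sum therefore did not set the members above those neurons, although Th was at 1.07 CPM in them. The set without possible doublets, here and below, left out the deepest 10% of the low-threshold neurons. It also left out barcodes with at least 2 UMIs of Trpm8, Trpv1, Tac1 or Nppb. As 85 of the 113 members had 2 or more Tac1 UMIs, it removed most members by Tac1, whether or not they were doublets. In the 26 members left, the log2 ratio to other neurons was -0.12 for Th and -0.09 for Gfra2, the opposite direction. These 26 are a selected part of the members, so the change cannot be read as an effect of doublets.

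**Figure D2:**
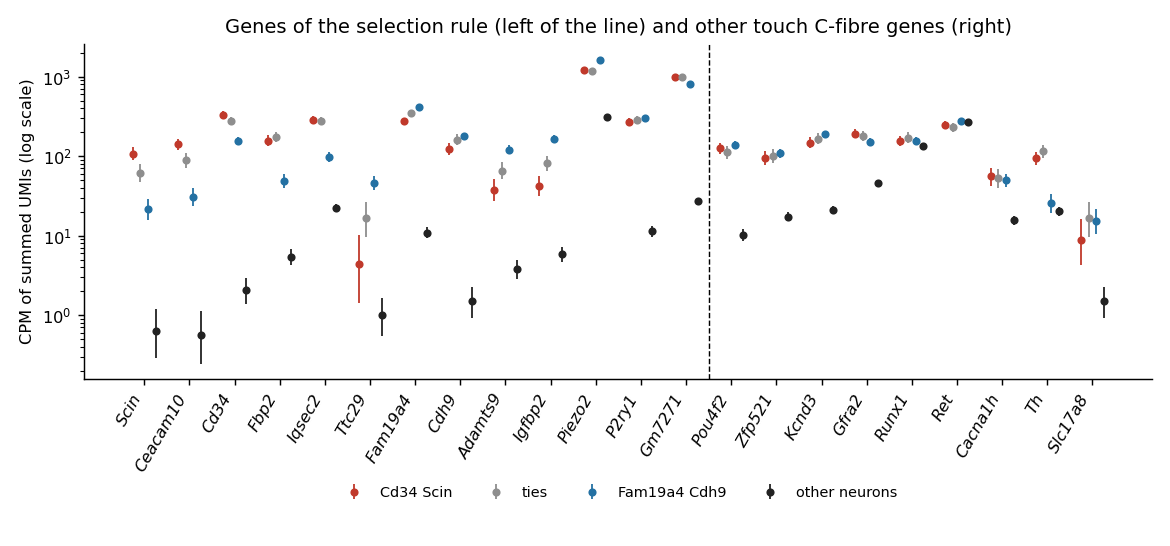
CPM of summed UMIs (vertical axis, log scale) of the genes that chose the cells, left of the dashed line, and of C-LTMR genes that did not, right of it. Points are the 4 groups of barcodes and bars are 95% counting intervals. Right of the line the Cd34 Scin and Fam19a4 Cdh9 points are less than 2-fold apart for all genes but Th, which is at 94.3 against 25.6 CPM. Slc17a8, with few UMIs, has a log2 difference of -0.70.

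Over all genes outside the rule, few separated the members from the Fam19a4 Cdh9 neurons. Of 3986 genes compared, 13 (0.326%) were at least 2-fold higher in the members and 41 (1.03%) at least 2-fold lower. The ties were above the Fam19a4 Cdh9 neurons for all 13 higher genes and between both groups for 11, and they were below for all 41 lower genes and between for 39. Fxyd2, the gamma subunit that tunes the sodium pump, was at 5886 CPM (5746 to 6029) in the members, 5141 in the ties, 2312 (2246 to 2379) in the Fam19a4 Cdh9 neurons and 1458 in other neurons, a log2 difference of 1.35 (1.29 to 1.402) between the subtypes. In the Mrgprd neurons it was at 5868 CPM (5759 to 5979), so this level was not particular to the members. Per barcode it ran from 0 to 140.5 UMIs per 10000 in the members with a median of 72.5, and from 0 to 117 with a median of 12.04 in the Fam19a4 Cdh9 neurons. The ranges overlapped, while the lower quartile of the members (45.8) was above the upper quartile of the Fam19a4 Cdh9 neurons (35.6).

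Gabra3, the alpha3 subunit of the GABA-A receptor, was at 215 CPM (189 to 244) against 90.6 (78.0 to 105) and was seen in 70.8% of members against 43.2%. Rarres1, a retinoid-induced membrane protein, was at 667 CPM against 309.6 and in 88.5% of members against 63.2%. Defb42, of the beta-defensin family, was at 109 CPM against 42.8. Of the cytoskeletal and intracellular genes, beta-tropomyosin Tpm2 was at 98.7 against 47.3 CPM, the small heat shock protein Hspb1 at 831 against 343, the calcium-binding S100a13 at 263 against 105 (22.2% of its UMIs from 1 member), the ubiquitin ligase Rnf114 at 82.0 against 36.9, the phosphatase Dusp1 at 69.7 against 33.5, the transporter Abca6 at 73.2 against 35.4 and the endosomal protein Tm9sf2, named to complete the 13, at 184 against 92.0.

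Growth hormone (Gh), a pituitary transcript, was the furthest apart of the higher genes, at 1300 CPM against 232. One member with 12955 UMIs held 1070 of the 1475 Gh UMIs (72.5%). Without the barcodes that held over 100 Gh UMIs, 1 in each subtype, the levels were 361 and 147 CPM. Gh was seen in 69.9% of members, 37.7% of Fam19a4 Cdh9 neurons, 49.1% of glia-like and 82.4% of erythrocyte-like barcodes. Thinned to 1000 UMIs these shares were 23.6%, 9.78%, 37.5% and 76.6%, with the members below both kinds of non-neuronal barcode.

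Of the 41 lower genes, Basp1, a membrane protein of growth cones, was at 127 CPM (107 to 149.5) against 422 (394 to 451). The protein kinase C substrate Marcksl1 was at 17.6 against 97.5 CPM, the growth-associated protein Gap43 at 328 against 678, the galectin Lgals1 at 288 against 827, the signalling adaptor Bex1 at 15.9 against 97.0, the protein kinase A inhibitor Pkia at 34.4 against 101 and the small GTPase Rhou at 33.5 against 116. Per barcode the median of Lgals1 was 1.22 UMIs per 10000 in the members and 6.47 in the Fam19a4 Cdh9 neurons, and that of Basp1 was 0 and 3.33.

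In several of the lower genes 1 barcode held much of the UMIs of its group. For Ly86 (14.99 against 96.0 CPM) it held 82.4% of the members' UMIs and 29.2% of those of the Fam19a4 Cdh9 neurons, for Tmem233 (17.6 against 100.4 CPM) 45.0% and 35.8%, for the peptide gene Cartpt (34.4 against 139 CPM) 59.0% and 28.7%, and for Gap43 46.0% and 14.8%. Without those barcodes Ly86 was at 2.69 against 69.3 CPM, Tmem233 at 10.1 against 65.6, Cartpt at 14.7 against 99.9 and Gap43 at 181 against 591. Cartpt was seen in like shares of both (13.3% and 12.3%), and without possible doublets the log2 difference of Ly86 was 0.94, the opposite direction. The direction of Gap43 turned as well, with log2 differences of 0.56 in the Hspb1 state described next, 1.09 outside it and 1.60 without possible doublets. That state is itself defined by Gap43. Outside it 1 barcode held 171 of the 245 Gap43 UMIs of the members. Without that barcode the members were at 959 CPM there, below the 1143 CPM of the Fam19a4 Cdh9 neurons. Only 21 members (18.6%) had any Gap43, against 56.8% of Fam19a4 Cdh9 neurons. The CGRP gene Calca was at 263 CPM against 656, with 63.8% of the members' UMIs and 30.3% of those of the Fam19a4 Cdh9 neurons in 1 barcode each, and its shares were alike, at 27.4% and 27.7%. Without possible doublets its log2 difference was 1.48, the opposite direction.

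Membership moved with the balance of a heat shock transcript, Hspb1, and Gap43. Whether this balance reflects injury was not tested. A barcode had more Hspb1 than Gap43 UMIs in 97 of 113 members (85.8%, 78.0 to 91.7), 64 of 99 ties (64.6%), 82 of 220 Fam19a4 Cdh9 neurons (37.3%) and 244 of 3161 other neurons (7.72%). This state also moved with depth, with medians of 6838 UMIs in it and 2747 outside it among the members, and 7445.5 and 3880 among the Fam19a4 Cdh9 neurons. When both subtypes were restricted to barcodes in this state, an alternative chosen after the data were seen, 12 of the 12 higher genes other than Hspb1 kept their direction and 3 of them (Gh, S100a13 and Rnf114) stayed past 2-fold. Of the 40 lower genes other than Gap43, 38 kept their direction and 23 stayed past 2-fold. These counts take the genes at any level, and 21 of the 26 past 2-fold also kept the minimum of 50 CPM and 20 barcodes within the state. Outside the state, where the members are 16 barcodes, 8 of the 12 and 38 of the 40 had their CPM in the same direction. The 4 higher genes that did not were Th, Rarres1, Tpm2 and Abca6, with 0, 11, 2 and 2 UMIs in those members.

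Within the state Th was at 104 against 52.8 CPM (81.3 and 28.2 without the highest barcode of each subtype), Fxyd2 at 6300 against 3797, Gabra3 at 230.3 against 142.5, Rarres1 at 722 against 500.5 and Hspb1 at 879 against 557. Of the lower genes, Bex1 was at 13.6 against 99.9 CPM in the state, Marcksl1 at 12.6 against 85.3 and Basp1 at 102 against 318. Outside the state Bex1 was at 39.7 against 94.7 CPM, Marcksl1 at 69.4 against 107 and Basp1 at 387 against 503, with 4, 7 and 39 UMIs in the members. Within the state Tmem233 was at 19.4 against 15.7 CPM (20 against 14 UMIs), with a counting interval of the log2 ratio from -0.757 to 1.398 that spans 0. Calca was at 232 against 98.8 CPM within the state, where 1 member held 190 of its 240 UMIs and 1 Fam19a4 Cdh9 neuron 60 of its 88, and at 50.6 and 32.4 CPM without those barcodes. All 21 members with Th were in the state. Of the rule's own genes, Scin was at 113 against 33.7 CPM in it and Igfbp2 at 44.5 against 187, while with each gene left out of the rule the log2 difference within the state was 0.49 for Scin, -1.64 for Igfbp2, -1.09 for Ttc29, -0.93 for Adamts9 and between -0.34 and -0.03 for Ceacam10, Cd34, Fbp2 and Iqsec2. The part of this state in the differences between the subtypes was not tested.

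**Figure D3:**
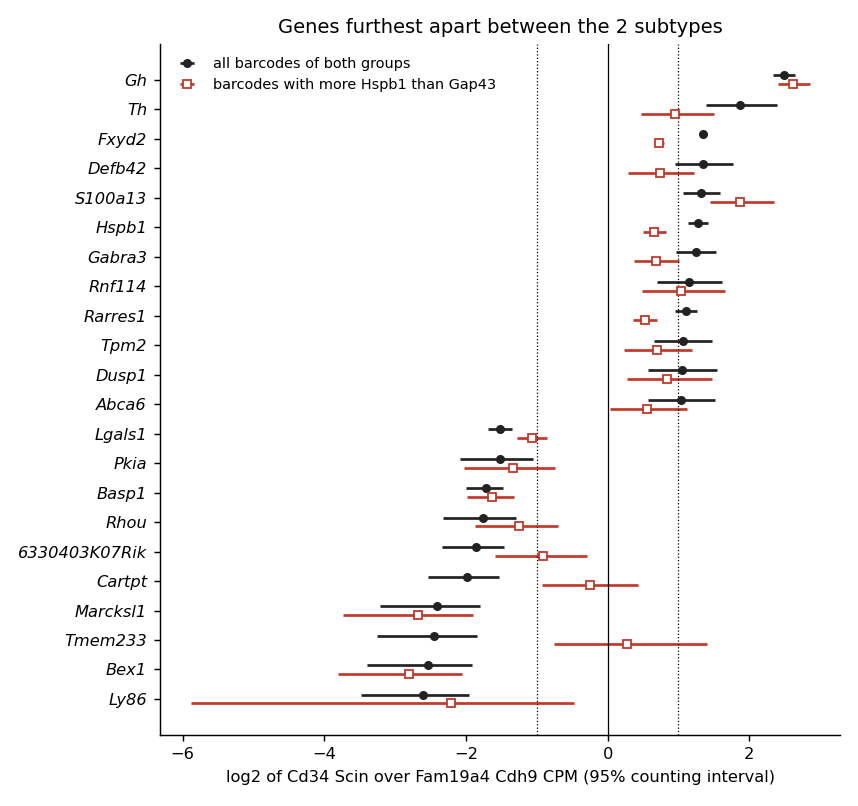
log2 ratio of CPM in Cd34 Scin over Fam19a4 Cdh9 neurons (horizontal axis, bars are 95% counting intervals) for genes furthest apart in each direction, over all barcodes (filled) and over barcodes with more Hspb1 than Gap43 UMIs (open). Dotted lines mark 2-fold. Th moves from 1.87 to 0.96 and Fxyd2 from 1.35 to 0.73, while Bex1, Marcksl1 and Basp1 stay past 2-fold lower.

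**Figure D4:**
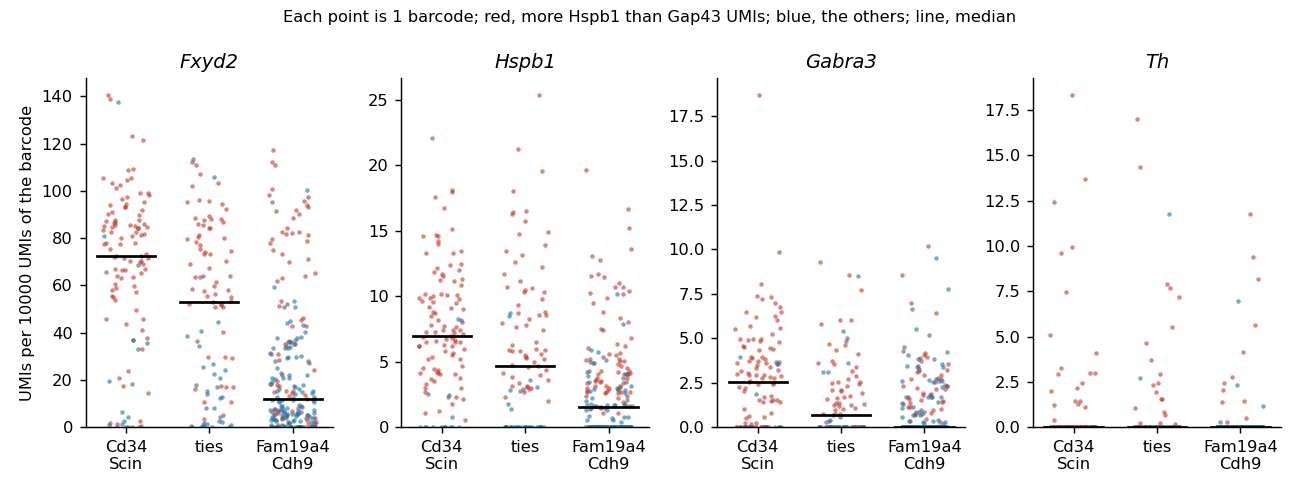
UMIs per 10000 UMIs of the barcode (vertical axes) of Fxyd2, Hspb1, Gabra3 and Th in each barcode of the 3 low-threshold groups, red for barcodes with more Hspb1 than Gap43 UMIs and blue for the others, with the median as a line. Fxyd2 has a median of 72.5 in the members, 52.9 in the ties and 12.04 in the Fam19a4 Cdh9 neurons, and reaches 140.5 in the members and 117 in the Fam19a4 Cdh9 neurons, and Th lies at 0 in most barcodes of each group.

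The 16 members outside the state had no Th UMI, and Fxyd2 was at 1647 CPM in them against 6300 in the other members. The homeobox gene Hopx was at 1042 against 405 CPM, the heavy neurofilament Nefh at 1786 against 768 CPM and the calcium-binding S100b at 1686 against 352 CPM. Gap43, which defines the state, is higher outside it by construction, and 1 barcode held 171 of the 245 Gap43 UMIs of the 16. Without that barcode, which was left out after the data were seen, Gap43 was at 959 CPM, Fxyd2 at 2112, Hopx at 699.6, Nefh at 1606 and S100b at 1360.

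More genes separated the members from other neurons. Of 4002 genes compared, 171 (4.27%) were at least 2-fold higher and 195 (4.87%) at least 2-fold lower, with a median log2 difference of 0.07 over all of them. The 12 furthest apart upward were Wfdc2, a secreted protease inhibitor (129.6 CPM, 109.5 to 152, against 4.19), Pou4f2 (125 against 10.3), Fam122b (109 against 11.6), the calcium-binding Necab3 (272 against 30.3), the semaphorin Sema3e (114 against 13.8), the Kv4 channel partner Dpp10 (381 against 46.1), adenylate kinase Ak5 (214 against 27.2), the nuclear protein Tox3 (174 against 22.9), the progestin receptor Paqr5 (367 against 49.95), the diacylglycerol kinase Dgkk (108 against 14.8), Kcnd3 (148 against 20.9) and Tpm2 (98.7 against 14.8). Of these, 11 were less than 2-fold apart between the members and the Fam19a4 Cdh9 neurons, and Tpm2 was the exception. Of the 12 furthest apart downward, 6 are neuronal: the heat and capsaicin channel Trpv1 (3.53 against 237 CPM), the peptide genes Gal (9.70 against 435), Cartpt (34.4 against 954.5) and Vip (0.882 against 172 CPM, from 1.23% of other neurons with 1 barcode holding 889 of the 2420 UMIs, and seen in 0.885% of members), and the membrane proteins Tmem233 (17.6 against 565) and Tmem255a (7.93 against 241). Of the others, Mobp, Mag, Mal, Apod and Cldn11 were held by 43.9% to 80.7% of glia-like barcodes.

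The 30 genes of the study's own C3 cluster that the rule did not use were chosen on these samples and are no independent evidence. Of them 29 could be compared with other neurons and all 29 were at least 2-fold higher, and of the 30 compared with the Fam19a4 Cdh9 neurons 2 were (Gabra3 and Rarres1), with a median log2 difference of 0.15. Necab3 (log2 0.96) and Paqr5 (0.93) came close to 2-fold.

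The counts of channels, receptors and other families that follow are to be read beside the 4.27% of all genes that were at least 2-fold above other neurons and the 4.87% that were below. Of 14 potassium channel genes compared with other neurons, 6 were at least 2-fold higher: Kcnd3, its partners Kcnip2 (200.1 against 55.1 CPM), Kcnip4 (359 against 138) and Dpp10, the leak channel Kcnk1 (108 against 44.3) and the beta subunit Kcnab1 (105 against 40.3), and Kcnc4 and Kcnt1 were lower. Kcnd3 is a pore, and Kcnip2, Kcnip4 and Dpp10 are partners, of the A-type current. None of the 12 potassium, 7 sodium, 7 calcium and 2 TRP channel genes compared between the subtypes was 2-fold apart, where 0.326% of all genes were higher and 1.03% lower, so that few or none would be among as many genes. Of 7 sodium channel genes the beta4 subunit Scn4b was higher (261 against 103 CPM), and the nociceptor channels Scn10a (181 against 386) and Scn11a (156 against 369.8) were lower. Of 6 calcium channel genes Cacna2d3 was higher (146 against 34.1 CPM), and Cacna2d1 and Cacna2d2 were lower. Of 4 TRP channels Trpv1 (3.53 CPM in 2 members, against 237) and Trpa1 (22.9 against 161) were lower. Trpm8 had no UMI in the 113 members. With 0 read as allowing 3 counts, the share of members with a Trpm8 UMI could be up to 2.65%, which does not limit the share of cells that express it.

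Among transduction genes Piezo1 had no UMI in the members, the stomatin Stoml3 had 3 UMIs, and the mechanically gated potassium channel Kcnk2 had 1 UMI. Tmem63b was at 149.0 CPM against 107 in the Fam19a4 Cdh9 neurons and 70.6 in other neurons, and Tmem150c at 82.0, 118 and 47.4. Nefh, high in thick myelinated axons, was at 859 CPM (median 1 UMI, but 200 in 1 member) against 1163 in the Fam19a4 Cdh9 neurons and 1108 in other neurons. None of 7 axon calibre genes was 2-fold apart in either comparison. The other neurons are a mixture, however. The whole list of 15 genes summed to 10298 CPM in the members and 11530 in other neurons. It summed to 25430 CPM in 381 large myelinated Piezo2 neurons, chosen for at least 2 UMIs of Nefh, and to 4293 CPM in the Mrgprd neurons.

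Of 10 purine, GABA and glutamate receptor genes, 3 were at least 2-fold above other neurons, and Gria2 was below. Among the 3, the GABA-A receptor subunit Gabra2 was at 275 CPM in the members, 226 in the Fam19a4 Cdh9 neurons and 84.2 in other neurons, and Gabra3 at 215, 90.6 and 40.7. The kainate receptor Grik1 was at 226 CPM against 442 in the Fam19a4 Cdh9 neurons, just under 2-fold lower.

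For transmission, the main vesicular glutamate transporter of the ganglion, Slc17a6, was at 429 CPM beside 449 and 391.7 in the Fam19a4 Cdh9 and other neurons. Of 11 release genes, Th, monoamine oxidase A (Maoa, 229 against 53.3 CPM) and the vesicle protein Synpr (615 against 234) were at least 2-fold above other neurons. Peptide genes were lower than in other neurons: 8 of 11 compared (Calca, Calcb, Tac1, Adcyap1, Nmb, Gal, Vip and Scg2) were at least 2-fold below other neurons and none above, with a median log2 difference of -2.40. Outside the Hspb1 state the log2 ratio of Nmb was 0.02. Substance P (Tac1) was nevertheless seen in 100 members (88.5%), up to 52 UMIs, against 50.5% of Fam19a4 Cdh9 neurons, 67.8% of other neurons and 8.33% of glia-like barcodes. Its level was 665 CPM (618 to 714) in the members, 397 (369.8 to 425) in the Fam19a4 Cdh9 neurons and 3522 in other neurons, and thinned to 1000 UMIs 46.5%, 20.4% and 58.1% of them would show it, and 5.12% of glia-like barcodes. Within the Hspb1 state the log2 ratio of Tac1 between the subtypes was 0.54 (0.372 to 0.721). Outside the state it was -0.30 (-0.987 to 0.22), an interval that spans 0, with 26 Tac1 UMIs in the members.

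Of 9 growth factor receptors compared with other neurons, Gfra2 and Ifngr2 (170.1 against 52.0 CPM) were higher, and 3 were lower, among them Gfra3 (7.93 against 228) and Il6st. Of 18 transcription factors 8 were higher, among them Pou4f1 (341 against 127 CPM), Pou4f2, Id4 (286.5 against 61.0), Tlx3 (74.1 against 34.9) and Hopx (462 against 182, 265 in the Fam19a4 Cdh9 neurons, with a log2 ratio of -0.03 to other neurons within the Hspb1 state), and Pou4f3, Zeb2 and Nr2f2 were lower. Of the receptors coupled to G proteins, the adhesion receptor Gpr64 was higher (317 against 47.9 CPM) and S1pr3 lower (25.6 against 145). Mrgprd, limited by the rule, had 1 UMI in 1 member. None of these genes was 2-fold apart between the subtypes, where 9 growth factor receptors and 18 transcription factors were compared and 0.326% of all genes were higher and 1.03% lower. The transcription factors Mef2c (log2 difference -1.11) and Hivep3 (-1.03), which were in no list and were picked after their values were seen, were among the 41 lower genes.

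The families of the list genes were looked at as well. Of the gelsolin family, advillin (Avil) was at 561 CPM against 473 in other neurons and gelsolin (Gsn) at 31.7 against 149, and villin (Vil1) had no UMI. Of 4 CEACAM genes in the table only Ceacam10 had a UMI in the members. None of 16 glycolysis and gluconeogenesis genes was 2-fold apart in either comparison, and Fbp1, the liver isoform of Fbp2, was at 1.76 CPM. Of 12 cadherin and guidance genes, Cdh11, Sema3e, Nrp1 (459 against 98.3 CPM), Nrp2 and Lsamp were at least 2-fold above other neurons and Plxna2 and Plxnc1 below. Of 5 matrix and protease genes Wfdc2 and Nbl1 were higher and Sparcl1 lower. Between the subtypes none of the 2 gelsolin, 16 glycolysis, 11 cadherin and guidance and 3 matrix genes compared was 2-fold apart, where 1.03% of all genes or fewer were in either direction, and no CEACAM gene outside the rule could be compared. Of 12 immediate early and injury genes Hspb1 and the cell cycle inhibitor Cdkn1a (466 against 110.5 CPM) were above other neurons and 7 below (Fosb, Jun, Junb, Egr1, Ier2, Dusp1 and Gap43), and of 10 compared between the subtypes Dusp1 and Hspb1 were above and Gap43 below, where 0.326% and 1.03% of all genes were. Outside the Hspb1 state the log2 ratios to other neurons were -0.22 for Nbl1, 0.37 for Plxna2, 0.73 for Gap43 and 1.048 for Sparcl1, the opposite direction, and without possible doublets they were 0.23 for Gap43 and 0.59 for Sparcl1.

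Markers of other cells were looked at as lists. The 10 glial markers summed to 2158 CPM in the members (0 to 132 UMIs per 10000 in a barcode), 2030 in the Fam19a4 Cdh9 neurons, 3045 in other neurons and 138209 in glia-like barcodes. Pmp22, which sensory neurons also carry, made up 1875 of the 2158 CPM and was the 1 of 5 glial genes that was higher than in other neurons (455 CPM). The other 4, among them Mbp, Cnp and Mal, were lower than in other neurons, as were the oligodendrocyte and glial genes Mobp (0.882 against 151 CPM), Mag (2.65 against 152.5), Cldn11 (3.53 against 125) and Apod (1.76 against 107), which were seen in 4.40% to 7.69% of other neurons. The direction turned for Mbp (log2 ratio 0.69) and Cnp (0.78) within the Hspb1 state, and for Mbp (1.87) and Mag (0.67) without barcodes with markers of other cells. Haemoglobin genes summed to 3151 CPM in the members, 2749 in the Fam19a4 Cdh9 neurons and 7483 in other neurons, endothelial markers to 64.4, 63.5 and 64.8, pituitary markers to 1356, 252 and 1357 (415, 167 and 408 without the barcodes with over 100 Gh UMIs), immune markers to 2.65, 2.46 and 6.24, and fibroblast and mural markers to 42.3, 30.0 and 183. Of these lists, 5 of 11 endothelial, 3 of 8 pituitary, 5 of 8 immune and 6 of 9 fibroblast and mural markers had no UMI in the members. Markers of other sensory neurons summed to 1477 CPM, 1616 and 10362, and the itch peptide Nppb had no UMI. The part of this RNA in the differences from other neurons was not tested.

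**Figure D5:**
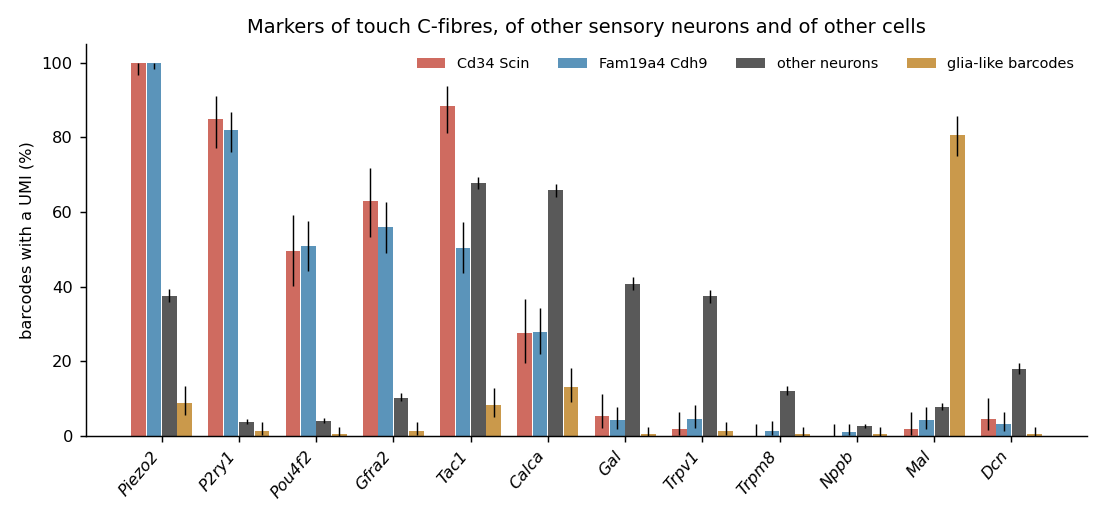
Share of barcodes with at least 1 UMI (vertical axis, bars are 95% Clopper-Pearson intervals) for markers of touch C-fibres, of other sensory neurons and of other cells. The Cd34 Scin and Fam19a4 Cdh9 neurons are alike for Pou4f2, Gfra2 and Calca. They are also alike for Piezo2, which the rule required in both, and for P2ry1, a low-threshold gene of the rule. Over all barcodes they differ for Tac1 (88.5% and 50.5%), and they lie far below the other neurons for Gal, Trpv1 and Trpm8.

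The spread of each gene among the members was described by the ratio of variance to mean of its UMIs at a depth of 1000 UMIs, which is 1 for pure counting error. Its median over 2205 genes was 1.02. It was highest for Gh (55.8, 1 barcode), then for the haemoglobin genes Hbb-bs (15.5) and Hba-a1 (6.44), the middle neurofilament Nefm (8.63, a gene of the rule, with 554 of its 3055 UMIs in 1 member), the nuclear RNAs Malat1 (5.15) and Meg3 (4.32), Gap43 (4.14) and the mitochondrial transcripts mt-Rnr1 (4.44), mt-Cytb (4.10) and mt-Nd1 (3.34). Of these 10, Gh and Gap43 were also 2-fold apart between the subtypes.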

How the data were processed

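Dropseq counts the transcripts of single cells in droplets by a cell barcode and a molecular barcode (UMI). The deposited table holds raw UMI counts of 21536 genes in 6997 barcodes, made by the authors from 9 runs of polyA RNA. The submitters' processing notes name bcl2fastq 2.17, STAR 2.5.3a, Seurat 1.4.0.16 and the mm10 build. Barcodes do not name their run, so the table is 1 pooled sample with 30491529 UMIs (median 2031 per barcode), and groups of cells were compared by values and counting intervals, with no test and no p-value.

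From these counts, cells were selected by the rule given above, UMIs were summed per group, and log2 ratios were taken of CPM after adding 1 UMI to each sum. A gene was compared if its mean over both groups was at least 50 CPM, at least 20 barcodes had a UMI and the rule did not use it. Intervals are exact at 95% (Poisson for levels, Clopper-Pearson for shares, conditional binomial for ratios), and a count of 0 was read as allowing 3. Named genes are the 12 highest and 12 lowest ratios of each comparison, the genes of 33 lists, and the 10 members' genes with the highest ratio of variance to mean at 1000 UMIs (mean of at least 0.1). The members and lists were chosen with earlier results of these data known. Calculations were tested on simulated data with 200 changed genes. No doublet caller was run. An alternative left out the deepest 10% of the low-threshold neurons and barcodes with 2 or more UMIs of Trpm8, Trpv1, Tac1 or Nppb. Other alternatives changed the limits, lists, weighting and expression minimum. Analyses used Python 3.11.15, numpy 2.4.6, scipy 1.17.1, pandas 2.3.3 and matplotlib 3.10.9, with gene positions from GENCODE M21 and promoters from RefSeq. Some genes of the lists and of the named sets are not reported here.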

Additional observations from a re-analysis of the deposited data

How the results depend on the processing

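No paired analysis was possible because barcodes are not tied to runs and all cells are 1 pooled sample, and for the same reason no replicate could be left out. The 113 members (26.16% of the low-threshold neurons) became 44 (10.19%) with a margin of at least 2 genes, 67 (15.51%) without Iqsec2 and Ttc29, 26 (12.81%) without possible doublets, a set that lost members to Tac1 since 85 of them had 2 or more of its UMIs, and 64 without barcodes with markers of other cells. The 13 genes higher than in the Fam19a4 Cdh9 neurons became 72 with the margin of 2, 148 without possible doublets, 30 without markers of other cells, 29 as a mean over cells, 29 thinned to 1000 UMIs, 35 and 7 at minimums of 20 and 100 CPM, and 192 outside the Hspb1 state. The 41 lower genes became 97 with the margin, 100 without possible doublets, 119 and 14 at the minimums of 20 and 100 CPM, and 23 in and 77 outside the state. Against other neurons the 171 higher genes became 258 with the margin, 286 and 94 at both minimums and 390 outside the state, and the 195 lower genes became 437 and 94 at both minimums. The restrictions to the state, to 1 barcode per bead, to barcodes without over 100 Gh UMIs and to groups without the barcode highest in a gene were chosen after seeing the data. Of the 54 genes 2-fold apart between the subtypes, 18 were still so and above the minimum level without possible doublets (50 in the same direction), 30 without markers of other cells (53), 21 in the state (51; 26 were past 2-fold at any level), 10 outside it, 23 without Iqsec2 and Ttc29 (54) and 42 with the margin of 2 (54). Over the named genes, 14 of 2184 log2 ratios against the Fam19a4 Cdh9 neurons and 15 of 1792 against other neurons changed sign, and a further 465 and 532 moved beyond their counting interval. Against the Fam19a4 Cdh9 neurons these were Tmem233 (0.271), Gap43 (0.557) and Calca (1.223, with 190 of 240 UMIs in 1 member) in the state, Tpm2 (-0.2), Rarres1 (-0.438), Dkk3 (0.026), Fasn (0.143), Idh1 (0.489) and Gap43 (1.093) outside it, Tmem233 (0.416) without markers of other cells, and Idh1 (0.654), Ly86 (0.941), Calca (1.482) and Gap43 (1.599) without possible doublets. Against other neurons they were Hopx (-0.025), Mbp (0.689) and Cnp (0.776) in the state, Nbl1 (-0.219), Th (-0.954), Nmb (0.023), Plxna2 (0.372), Gap43 (0.734) and Sparcl1 (1.048) outside it, Mag (0.668) and Mbp (1.873) without markers of other cells, and Gfra2 (-0.088), Th (-0.121), Gap43 (0.23) and Sparcl1 (0.586) without possible doublets. The cause of these changes was not tested. The log2 ratios add 1 UMI to each sum, so they can differ in direction from the CPM where UMIs are few. Outside the state, by CPM against the Fam19a4 Cdh9 neurons, Dkk3 did not turn (79.4 against 86.8). Th (0 against 4.38) and Abca6 (19.8 against 21.9) did. For Gap43 outside the state 1 member held 171 of the 245 UMIs. Depth limits every value of a few UMIs.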

Other observations

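Sex-linked transcripts were seen from both sexes in the members. Y-linked genes alone had a UMI in 40 members, Xist alone in 32, both in 2 and neither in 39. In the Fam19a4 Cdh9 neurons these numbers were 57, 79, 7 and 77, and in the ties 38, 23, 0 and 38. With 1 pooled sample the difference in these numbers was not tested.

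Of 528 barcodes that ended in an unread base, 13 were members. The table held 140 pairs of barcodes that could be 1 bead, 10 of them with a member and 2 of them made of 2 members. With 1 barcode kept per possible bead, 110 members were left, and the 6 barcodes listed more than once included no member.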
